A study of Mus musculus with 12 samples.

Results

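The subject is the liver response that 3 insulins of different make had in common. All 9 liver arrays of mice given Albulin, Insulin-Apo or insulin glargine were set together against the 3 arrays of mice given saline, with each insulin counted equally, and a probe set (the group of array probes that reads one transcript) was taken as a member of the shared response when 2 conditions were met. All 9 insulin arrays had to lie on one side of all 3 saline arrays, and the limma fit had to call the probe set, with a log odds of change (B) over 0. Of the 26027 probe sets tested, 1162 met the first condition (4.46%, with 491 above saline, 1.89%, and 671 below, 2.58%) and 598 met the second (2.30%, with 293 higher, 1.13%, and 305 lower, 1.17%). Both were met by 442 probe sets (1.70%). Of these members, 196 were higher (0.753%) and 246 lower (0.945%) after insulin than after saline. A single gene symbol was given for 411 of them, from 406 genes, 174 higher and 232 lower, and the remaining 31 carried several symbols or none. The choice rests on the same values that are described below, so the size, SE and p value of the shared change in the members are a description.

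Livers of C57BL/6 mice were taken 6 h after 1 subcutaneous injection, and total RNA was read on Affymetrix arrays (Mouse Gene 1.0 ST), with 3 arrays in each of the 4 groups. The labels give the mice as 6 weeks old and the dose of each insulin as 55 nmol/kg, and the controls received saline. Albulin is a single-chain insulin fused to albumin, Insulin-Apo carries the same kind of insulin on apolipoprotein A-I, and insulin glargine is an insulin analogue that dissolves slowly from the injection site and carries no fusion partner. Both fusion proteins were made in E. coli. None of the 4 groups received a carrier protein alone or short-acting insulin, so an effect of insulin and an effect of any injected protein cannot be told apart. The sources used here do not say that each array is a separate mouse, and they give neither the hour of day nor the feeding state, so the p values measure the spread between arrays.

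Insulin binds a receptor tyrosine kinase on the hepatocyte and acts through the AKT and mTOR kinases and the FoxO transcription factors, which together favour glucose storage, lipid and protein synthesis and ribosome production over glucose output. In the liver, insulin and feeding also shift the phase of the circadian clock. The acute phase response is the secretion of plasma proteins by hepatocytes under the control of cytokines, and the unfolded protein response raises chaperones of the secretory route.

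Values are log2 expression from robust multi-array averaging (RMA), so a difference of 1 is a fold of 2, and levels of different probe sets are not compared. Medians of the 12 arrays ran from 7.70 to 7.77. On average an array correlated with the rest of its group at 0.997 after saline, 0.996 after Albulin, 0.995 to 0.996 after Insulin-Apo and 0.990 to 0.993 after insulin glargine, where replicate 3 stood apart with the lowest value. The liver label held: the mean of 8 hepatocyte markers was 14.4 to 14.5 on every array, and albumin (Alb) changed by 0.0042 ± 0.05 (SE). Without insulin glargine replicate 3 the fit called 902 probe sets, and 428 of the 442 members were still members. Leaving out saline replicate 1, 2 or 3 lowered the called probe sets to 348, 310 and 389, and without saline replicate 2 there were 250 members. The balance of directions turned with insulin glargine: there were 329 higher and 325 lower members without its replicate 3, and 406 higher and 302 lower without the whole group. The count of probe sets whose arrays did not overlap rose to 1982 without saline replicate 1 and to 2157 without saline replicate 3.

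The members changed little in most cases. The median shared change was 0.48 among the higher members and -0.48 among the lower ones, and 17 higher and 13 lower members changed by 1 or more. The gap between the nearest insulin array and the nearest saline array was 0.139 in the median member, under 0.1 in 166 members and over 0.5 in 16. It was widest, at 1.13, in Hsd3b2. At the edge of the rule, Acaca, Alg2 and Ccar1 lay just inside with gaps of 0.0014, 0.0024 and 0.0030, and Etv6, Smarcd1 and Sft2d1 lay just outside with gaps of -0.0011, -0.00050 and -0.0014.

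Among members that changed by at least 1, those with the smallest range of the 3 insulins relative to the change were, by name, Car5a, Slc30a10, Nfil3, Sorbs3, Acot3 and Hsd3b2. Slc30a10, which exports manganese from the hepatocyte, was at 8.87, 8.73 and 8.87 after saline. It was at 10.01, 9.97 and 9.99 after Albulin, 9.83, 10.02 and 9.74 after Insulin-Apo, and 9.87, 9.80 and 10.11 after insulin glargine. The saline and insulin arrays were separated by a gap of 0.865, and the shared change was 1.10 ± 0.08 (SE, adjusted p = 2.94e-05 by limma). Its changes after Albulin, Insulin-Apo and insulin glargine were 1.17, 1.04 and 1.10. None of the 3 paired differences between insulins passed (limma, adjusted p = 0.54 to 0.80), and their 95% intervals lay within -0.27 and 0.33. Slc30a10 was picked for its small range, so these values describe the choice and do not test whether the insulins acted alike. Car5a, the mitochondrial carbonic anhydrase that feeds bicarbonate to urea synthesis and gluconeogenesis, had the smallest such ratio among the lower genes. Its saline arrays read 10.68, 11.20 and 10.94, and the insulin arrays ran from 9.36 through a median of 9.81 to 10.18. The changes of Car5a were -1.13, -1.26 and -1.16 in the same order of insulins. Sorbs3, which encodes the adhesion adaptor vinexin, fell by 1.08 ± 0.10, and Acot3, a peroxisomal acyl-CoA thioesterase, by 1.07 ± 0.16. Their single changes ran from -0.95 to -1.31 and from -0.85 to -1.20.

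**Figure D1:**
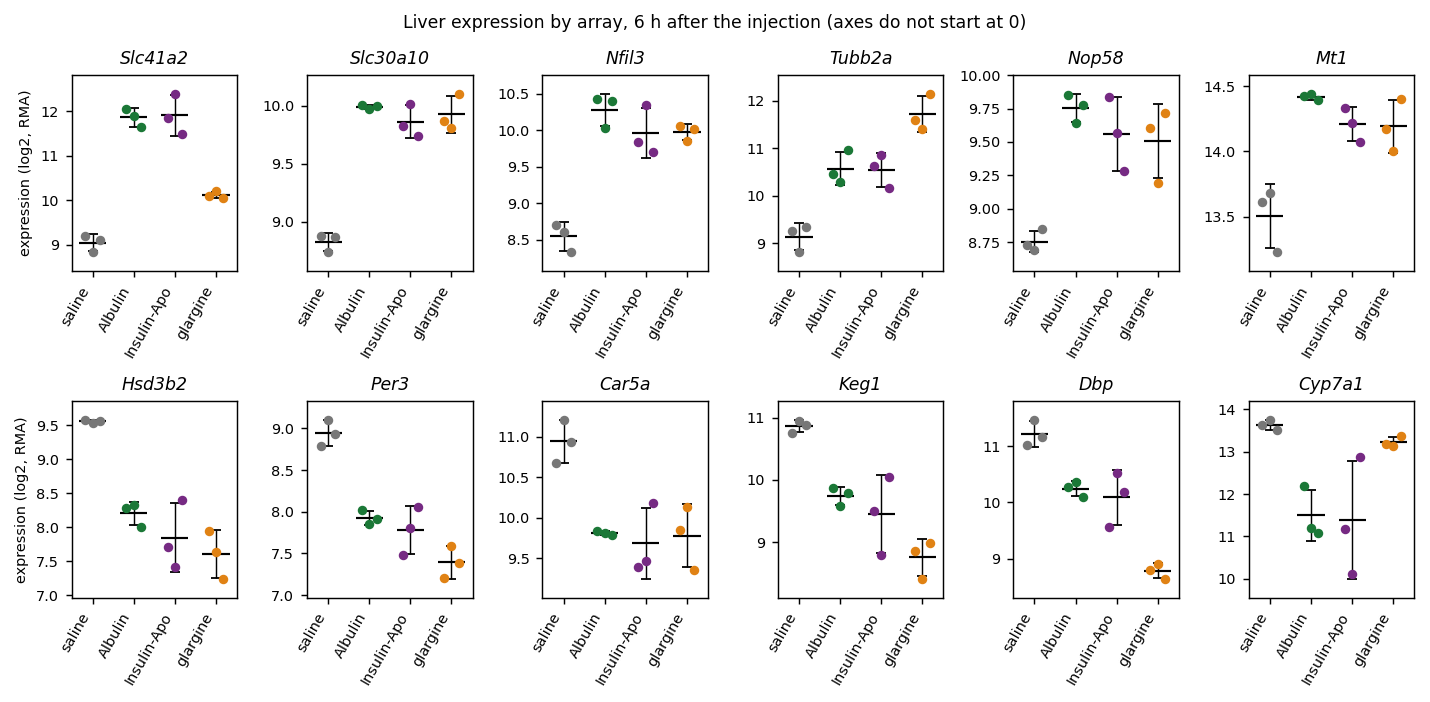
Log2 expression (vertical axis, RMA, not starting at 0) of 12 genes on each of the 12 arrays, with the group on the horizontal axis, points for arrays, and the mean and SD of each group of 3 as a bar. Slc30a10, Nfil3 and Car5a sat at about the same level after each insulin, while Slc41a2, Tubb2a and Dbp differed between insulin glargine and the fusion proteins, and Cyp7a1 cleared the saline arrays by only 0.148.

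Slc41a2, a magnesium transporter, had the largest shared increase. The saline arrays were at 9.20, 8.83 and 9.12, the Albulin arrays at 12.05, 11.90 and 11.64, the Insulin-Apo arrays at 11.86, 12.40 and 11.48 and the insulin glargine arrays at 10.10, 10.20 and 10.05. All insulin arrays were thus above saline by at least 0.857, but insulin glargine stood between saline and the fusion proteins. The shared change was 2.25 ± 0.15, a 4.76-fold difference, made of 2.82, 2.87 and 1.07. For this and every other gene, the SE of a shared change holds the spread between arrays of a group and not that between the insulins. Tubb2a, a beta-tubulin, had the opposite order, with changes of 1.44, 1.41 and 2.58 and insulin arrays from 10.15 to 12.15 against 8.80 to 9.33 after saline. Serpina7, the plasma carrier of thyroid hormone, changed by 2.08 ± 0.44, but its saline arrays spread from 8.29 to 10.03, and its call was lost in 13 of the 26 alternative analyses, among them those without saline replicate 2 or 3. The member probe set of Trdn, a protein of the calcium release unit of muscle, was at 3.83 to 4.19 after saline, under the limit of 5 for a dim signal, and at 4.57 to 6.78 after insulin, so no size is given for its change. Its call was lost with a stricter filter on dim probe sets and without saline replicate 1, 2 or 3, and another probe set of Trdn, at a mean of 9.89 after saline, changed by 0.00041. Slc16a6 and Slc16a1, both of the monocarboxylate transporter family, rose by 1.21 and 0.66, the former mostly after insulin glargine (0.68, 0.70 and 2.25) and the latter about evenly (0.67, 0.61 and 0.70). The call of Slc16a6 was lost without saline replicate 2, without the insulin glargine group and with the 9 insulin arrays fitted as 1 group. Mt1, a metallothionein that binds zinc and copper, was at 13.23 to 13.68 after saline and at 14.00 to 14.44 after the insulins, a change of 0.77 ± 0.10. Slc39a14, which takes up zinc, manganese and iron, rose by 0.77 ± 0.09.

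**Figure D2:**
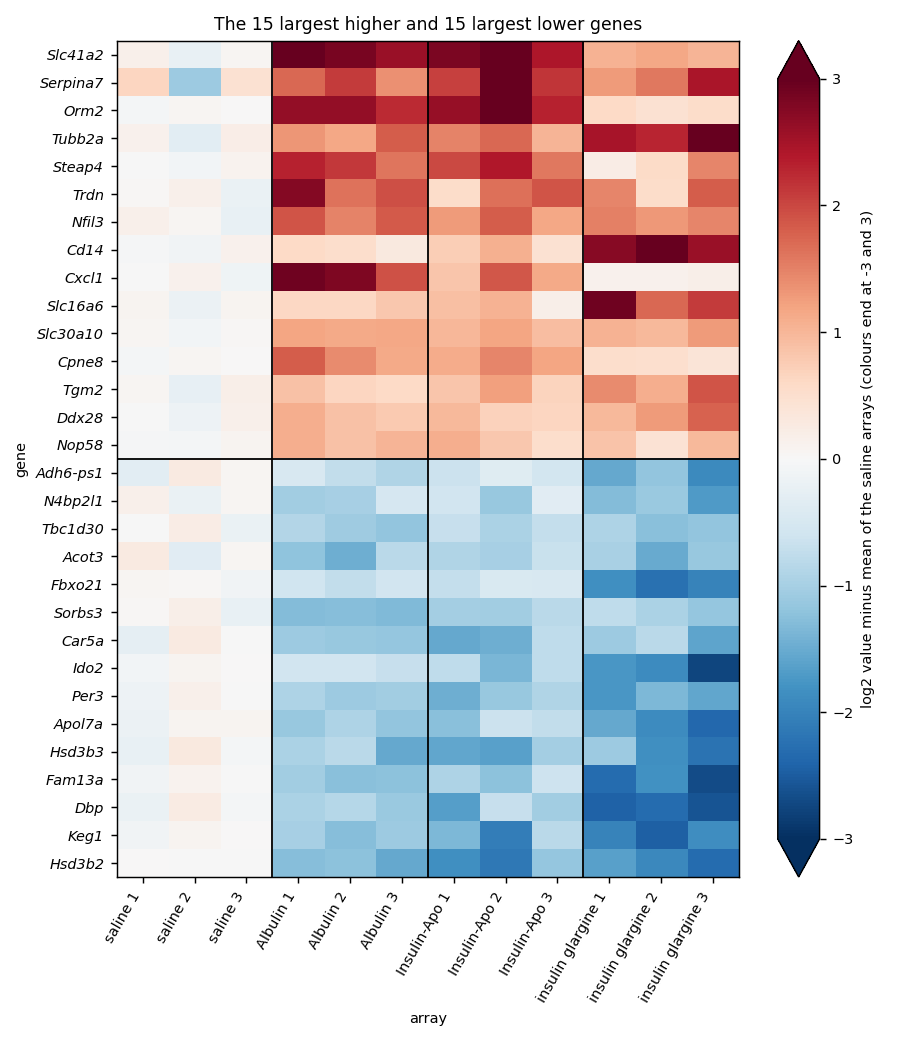
The 15 higher and 15 lower members with the largest shared change (rows) on the 12 arrays (columns), where colour gives the log2 value minus the mean of the saline arrays, and the colours end at -3 and 3. Every insulin array had the sign of its block, which the rule requires, and the depth of colour differed between insulin glargine and the fusion proteins in genes such as Slc41a2 and Fbxo21.

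Of the 17 circadian clock genes measured, 3 were called higher and 3 lower, beside 1.13% and 1.17% of all probe sets, and 4 were members. Nfil3 is the repressor that competes with the activators Dbp and Tef for the same DNA element, the D-box. Nfil3 was at 8.70, 8.61 and 8.33 after saline, 10.42, 10.03 and 10.40 after Albulin, 9.83, 10.35 and 9.70 after Insulin-Apo, and 10.05, 9.86 and 10.02 after insulin glargine. Its shared change was 1.53 ± 0.13, and the changes after the single insulins were 1.74, 1.42 and 1.43. The activators moved the other way. Dbp fell by 1.51 ± 0.16, from 11.03, 11.47 and 11.16 after saline to between 9.57 and 10.53 after the fusion proteins and between 8.64 and 8.90 after insulin glargine. The call of Dbp was lost with the 9 insulin arrays fitted as 1 group. Tef fell by 0.62 ± 0.12, with changes of -0.54, -0.64 and -0.69, but its call was lost without saline replicate 1, 2 or 3 and without the Albulin group. Per3, a period gene, was at 8.79, 9.10 and 8.94 after saline and ran from 7.20 through a median of 7.81 to 8.05 after insulin, a change of -1.24 ± 0.11. The RefSeq promoter table holds an entry for Per3, the 250 bases before a start site at chr4:151044666-151044915 on the minus strand of GRCm38.p6, shown because Per3 held 2 copies of the D-box TTATGTAA (capitals).
Per3: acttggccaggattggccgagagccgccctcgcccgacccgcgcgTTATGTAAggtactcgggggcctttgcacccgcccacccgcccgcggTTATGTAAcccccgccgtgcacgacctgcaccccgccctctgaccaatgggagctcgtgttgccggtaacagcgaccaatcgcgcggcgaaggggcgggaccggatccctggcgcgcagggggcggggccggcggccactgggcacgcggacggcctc

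The core loop did not share one direction. Arntl (Bmal1) was called higher at 1.06 ± 0.15, with changes of 0.61, 0.61 and 1.97, but 1 Insulin-Apo array at 8.55 lay under the highest saline array at 8.58. Cry1 was called with changes of 0.12, 0.0064 and 1.47, and only its insulin glargine arrays, at 9.23 to 9.42, were clear of saline (7.83 to 7.92) as a group. Nr1d1 was not called, at 0.27, 0.20 and -1.63. Among 14 clock output genes, Usp2 (-1.86, -1.95 and 0.70), Tsc22d3 (-1.73, -1.16 and 0.02) and Rgs16 (-0.91, -1.88 and -2.48) were called lower, beside 1.17% of all probe sets, and all 3 overlapped with saline. The hour of day at which each group was treated is not given, so a shift of the clock by insulin and a difference in hour between groups cannot be told apart.

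**Figure D3:**
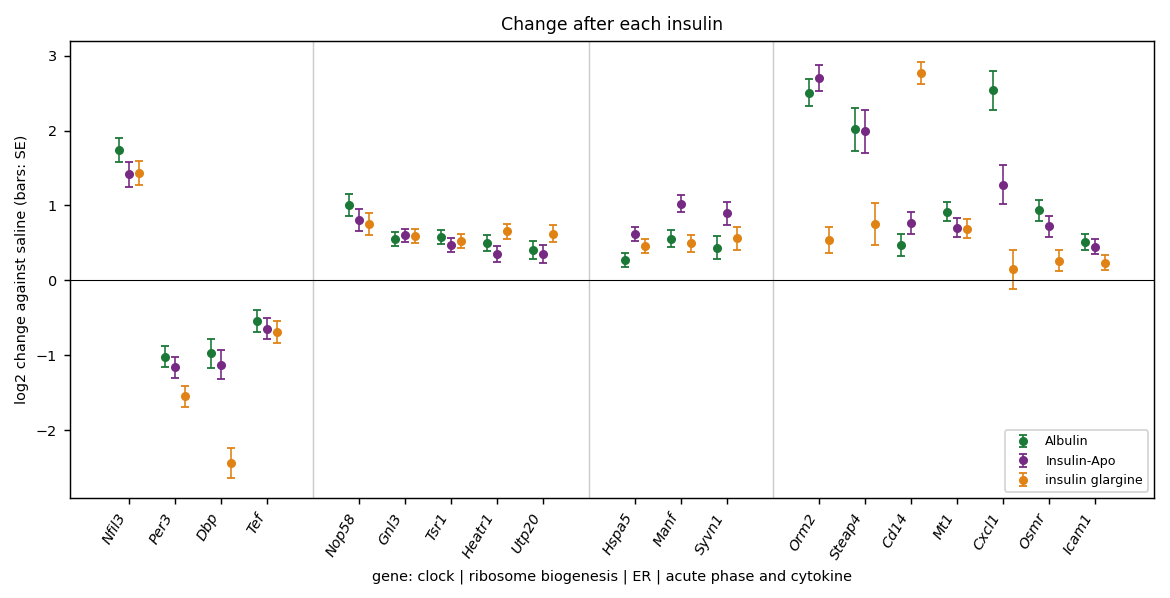
Log2 change against saline after each insulin (vertical axis, points with SE, 3 arrays a group) for the members of the clock, ribosome biogenesis, endoplasmic reticulum and acute phase or cytokine lists (horizontal axis). The ribosome biogenesis genes sat between 0.35 and 1.00 after every insulin, whereas Orm2, Cd14 and Cxcl1 spread over more than 2 log2 units.

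A few genes of the endoplasmic reticulum (ER) and of protein folding rose, each by under 1. Of 25 ER chaperone and unfolded protein response genes, 3 were called higher, beside 1.13% of all probe sets, and none lower. All 3 were members, and the median change of the list was 0.17 against -0.0042 for all probe sets. Without saline replicate 1 or 2 only Manf was called, and without saline replicate 3 the call of Syvn1 was lost. Hspa5 and Syvn1 also lost their call without the Insulin-Apo group. With the 9 insulin arrays fitted as 1 group, Hspa5, Manf and Syvn1 all lost their call. Hspa5 (BiP), the main chaperone of the ER, was at 13.03, 13.14 and 13.35 after saline and ran from 13.44 to 13.88 after insulin, a change of 0.45 ± 0.08 with 0.28, 0.62 and 0.46 after the single insulins. Manf, an ER protein that works with BiP, rose by 0.69 ± 0.09, and by more after Insulin-Apo (1.02) than after Albulin (0.55) or insulin glargine (0.50). These 2 differences were 0.47 and 0.53 (limma, adjusted p = 0.029 and 0.016). Syvn1, the ubiquitin ligase of ER-associated degradation, was at 10.08 to 10.16 after saline and at 10.37 to 11.37 after insulin, a change of 0.63 ± 0.13. Creld2 (0.77), Dnajb9 (0.70) and Xbp1 (0.54) were not called. The promoters of Hspa5 and Syvn1 are shown because they were the 2 among 151 promoter entries of higher genes (1.33%) with the ER stress element, a CCAAT box and a CCACG box 9 bases apart, against 0.113% of all 32851 entries. The windows are the 250 bases before the start at chr2:34771840-34772089 and chr19:6046326-6046575, both on the plus strand, with the match in capitals.
Hspa5: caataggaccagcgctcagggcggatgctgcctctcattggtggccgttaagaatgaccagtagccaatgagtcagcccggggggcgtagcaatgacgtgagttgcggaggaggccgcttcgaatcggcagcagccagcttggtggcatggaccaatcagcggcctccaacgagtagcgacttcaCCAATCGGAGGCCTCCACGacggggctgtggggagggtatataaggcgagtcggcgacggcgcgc
Syvn1: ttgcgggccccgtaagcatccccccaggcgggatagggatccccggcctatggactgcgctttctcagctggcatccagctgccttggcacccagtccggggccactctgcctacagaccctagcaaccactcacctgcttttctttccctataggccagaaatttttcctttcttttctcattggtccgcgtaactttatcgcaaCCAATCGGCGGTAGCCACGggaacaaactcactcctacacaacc

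Further members work along the secretory route. The genes named next were chosen after their values were seen. Lrrc59, a ribosome-binding protein of the ER membrane, was at 10.96, 10.83 and 10.94 after saline and at 11.48 to 12.06 after insulin, and its changes were 0.73, 0.85 and 0.74. Sec24d, of the coat that buds vesicles from the ER, changed by 0.64, 0.80 and 0.49, and Sec22b, which fuses them with their target, by 0.59, 0.68 and 0.45. Slc35b1, which brings ATP into the ER, rose more after Insulin-Apo (0.72) than after Albulin or insulin glargine (0.37 each), and both differences passed (limma, adjusted p = 0.012 and 0.011). Alg2, a mannosyltransferase of N-glycan assembly, changed by 0.82, 1.02 and 0.27, and its lowest insulin array cleared the highest saline array by 0.0024.

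Called genes of ribosome assembly were all higher. Of 31 ribosome biogenesis genes, 5 were called higher, beside 1.13% of all probe sets, and none lower. All 5 were members, and 9 of the 31 had all insulin arrays above saline, beside 1.89% of all probe sets. Nop58, a core protein of the box C/D particles that guide ribosomal RNA methylation, was at 8.73, 8.69 and 8.85 after saline, 9.85, 9.64 and 9.78 after Albulin, 9.84, 9.56 and 9.28 after Insulin-Apo and 9.60, 9.19 and 9.72 after insulin glargine. Its shared change was 0.85 ± 0.12. Gnl3 (nucleostemin), a nucleolar GTPase, changed by 0.55, 0.60 and 0.59, and the 3 paired differences between insulins had 95% intervals within -0.25 and 0.21. Tsr1, Heatr1 and Utp20, factors of the small subunit, rose by 0.52, 0.50 and 0.46, but the call of Utp20 held in only 12 of the 26 alternatives. Without saline replicate 3 neither Utp20 nor Heatr1 was called, which left 3 of the 31. Nop56 (0.36), Ddx21 (0.41) and Nop14 (0.35) were not called, and Npm1 (-0.12), Fbl (-0.05) and Myc (-0.03) lay near 0. Outside the list, and chosen after their values were seen, the assembly factors Gnl2 and Bysl changed by 0.53 and 0.54. Of 48 translation initiation factors, a family also picked after its values were seen, 4 were higher members, among them Eif1a at 0.75. The 1 lower member was Eif4a2 at -0.46. Over all probe sets, 0.753% were higher and 0.945% lower members. Ddx28, a helicase of the mitochondrial ribosome, rose by 1.01 ± 0.14, with changes of 0.92, 0.77 and 1.35.

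Some acute phase genes rose, and fewer were clear of saline after every insulin. Of 28 measured, 10 were called higher, beside 1.13% of all probe sets, and none lower. Higher members were 4, beside 0.753% of all probe sets: Orm2, Steap4, Cd14 and Mt1. Orm2, an orosomucoid secreted into plasma, was at 10.78, 10.91 and 10.85 after saline, 13.08 to 14.03 after the fusion proteins and 11.44, 11.31 and 11.40 after insulin glargine. The change after insulin glargine was thus 0.54, above every saline array, and 2.51 and 2.70 after Albulin and Insulin-Apo. Orm1 and Orm2 are close relatives, and probes may be read by both transcripts. Steap4, a metalloreductase, changed by 2.02, 1.99 and 0.75. Cd14, the receptor for bacterial lipopolysaccharide, had the reverse order, at 7.86 to 8.09 after saline, 8.25 to 8.56 after Albulin, 8.43 to 9.03 after Insulin-Apo and 10.55 to 10.96 after insulin glargine. The other 6 called genes overlapped with saline. Saa1 changed by 5.55, 5.33 and 0.13, Apcs by 0.98, 1.28 and -0.16, and Lcn2 by 1.38, 1.40 and 0.53. With the 9 insulin arrays fitted as 1 group, Orm2, Steap4 and Cd14 were not called.

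Of 28 cytokine signalling and NF-kB target genes, 7 were called higher and 3 were higher members, beside 1.13% and 0.753% of all probe sets. Cxcl1, a neutrophil chemokine, was at 8.43, 8.56 and 8.31 after saline, 11.35, 11.24 and 10.33 after Albulin, 9.28, 10.30 and 9.56 after Insulin-Apo, and 8.57, 8.57 and 8.61 after insulin glargine. It met the rule by 0.0086, and all 3 paired differences between insulins passed (limma, adjusted p = 0.012, 2.1e-04 and 0.022). Osmr, the oncostatin M receptor, changed by 0.93, 0.72 and 0.26, and Icam1, an adhesion molecule for leukocytes, by 0.51, 0.45 and 0.23. The call of Icam1 held in 10 of 26 alternatives, and without saline replicate 2 neither Icam1 nor Osmr was called. With the 9 insulin arrays fitted as 1 group, none of Cxcl1, Osmr and Icam1 was called, and Cxcl1 was also lost without the Albulin group. Mx2 was the 1 interferon response gene of 16 that was called, at 7.18 to 7.28 after saline and 7.68 to 8.16 after insulin. Among genes chosen after their values were seen, the receptors Tnfrsf1a (0.62) and Tnfrsf12a (0.80) also rose. The promoters of Steap4, Icam1 and Orm2 are shown for the letters of inducible elements. Steap4 (chr5:7960222-7960471) and Icam1 (chr9:21015690-21015939) hold the STAT3 motif TTCCNGGAA, present in 3.31% of the entries of higher genes and 0.913% of all, and Orm2 (chr4:63362199-63362448) holds the C/EBP palindrome TTGCGCAA, present in 0.662% and 0.164%. All 3 windows lie on the plus strand, with matches in capitals.
Steap4: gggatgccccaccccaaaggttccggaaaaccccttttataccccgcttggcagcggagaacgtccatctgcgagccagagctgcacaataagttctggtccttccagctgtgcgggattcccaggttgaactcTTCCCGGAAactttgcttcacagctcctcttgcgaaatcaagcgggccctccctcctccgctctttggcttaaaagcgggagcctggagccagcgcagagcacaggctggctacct
Icam1: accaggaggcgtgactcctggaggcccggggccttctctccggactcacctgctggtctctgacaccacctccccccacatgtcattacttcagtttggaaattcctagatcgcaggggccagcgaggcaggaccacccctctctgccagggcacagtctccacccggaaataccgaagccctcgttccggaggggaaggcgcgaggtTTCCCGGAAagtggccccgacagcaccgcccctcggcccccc
Orm2: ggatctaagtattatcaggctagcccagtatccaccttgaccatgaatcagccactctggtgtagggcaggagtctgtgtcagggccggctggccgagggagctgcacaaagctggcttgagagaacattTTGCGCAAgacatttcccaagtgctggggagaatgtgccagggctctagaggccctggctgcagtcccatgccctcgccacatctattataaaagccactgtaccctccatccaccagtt

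The mean level of neutrophil markers was higher on the fusion protein arrays than on the saline arrays. That of Kupffer cell markers overlapped with saline after Insulin-Apo and insulin glargine. Cd14 rose most after insulin glargine. In bulk liver, a change in the number of cells of a type and a change in RNA per cell cannot be told apart. None of the 13 neutrophil markers was called, beside 2.30% of all probe sets. The mean of the 13 was 6.94 to 7.11 on the saline arrays, 7.37 to 7.52 after Albulin, 7.23 to 7.37 after Insulin-Apo and 6.80 to 6.99 after insulin glargine. The mean of 13 Kupffer cell and macrophage markers ran from 10.01 to 10.24 after saline, 10.3 to 10.5 after Albulin, 10.2 to 10.7 after Insulin-Apo and 9.67 to 10.3 after insulin glargine, again with none called. The defining markers passed the filter on dim probe sets, with Ly6g at 5.71 to 6.92 and S100a8 at 6.70 to 8.16 over the 12 arrays. Values of this size do not show that a transcript was present. Ins2, a gene of the pancreas list, was at 7.02 to 7.08 after saline and at 6.90 to 7.24 after insulin. The part of these cells in the acute phase and cytokine values was not tested. In all, none of the markers of the 10 cell type lists was a member, beside 1.70% of all probe sets. The lists are short, so these counts are not read as a result about the cell types.

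The 15 largest lower members included enzymes of steroid and amino acid handling. On the lists, none of the 18 urea cycle and amino acid catabolism genes and none of the 21 cytochrome P450 genes was called. Over all probe sets 2.30% were called, so in lists this short these counts are not read as a result. Hsd3b2 and Hsd3b3, hydroxysteroid dehydrogenases, fell by 1.67 ± 0.18 and 1.40 ± 0.22. Hsd3b2 was at 9.58, 9.54 and 9.56 after saline, 8.28, 8.32 and 8.01 after Albulin, 7.71, 7.42 and 8.40 after Insulin-Apo and 7.94, 7.63 and 7.24 after insulin glargine. The genes belong to a family of near-identical copies, so each value may hold signal from the others. Keg1, of the glycine N-acyltransferase family, was at 10.75, 10.95 and 10.88 after saline and ran from 8.41 through a median of 9.51 to 10.05 after insulin, a change of -1.54 ± 0.20. Ido2, which opens the tryptophan ring, fell by 1.23 ± 0.18, and its changes of -0.61, -0.96 and -2.13 were the more negative for insulin glargine. The call of Ido2 was lost with the 9 insulin arrays fitted as 1 group. The following genes were smaller changes chosen after their values were seen. Afmid, the next enzyme after ring opening, fell by 0.74 ± 0.14, Nadsyn1, the last enzyme of NAD synthesis, by 0.38 ± 0.08, and Nmrk1, which phosphorylates nicotinamide riboside, by 0.92 ± 0.13. Dpys and Upb1, which degrade pyrimidines, fell by 0.61 and 0.40, and Shmt1, of folate-dependent 1-carbon metabolism, by 0.49. Nr1i3 (CAR), a nuclear receptor that induces drug-metabolising enzymes, was at 12.70, 12.39 and 12.54 after saline and at 11.47 to 12.21 after insulin, with changes of -0.76, -0.73 and -0.78. Slc29a1, a nucleoside transporter, fell by 0.73 ± 0.09.

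Fam13a fell by 1.46 ± 0.15, Apol7a, of the apolipoprotein L family, by 1.29 ± 0.16, and Fbxo21, an F-box protein of a ubiquitin ligase, by 1.07 ± 0.09. All were more than 1 lower after insulin glargine than after at least one fusion protein, as with Fbxo21 at -0.64, -0.55 and -2.03. With the 9 insulin arrays fitted as 1 group, Fam13a, Apol7a and Fbxo21 all lost their call. Tbc1d30, a Rab GTPase activating protein, fell by 0.98 ± 0.10 with changes of -1.05, -0.79 and -1.12, and N4bp2l1 by 0.97 ± 0.17. The call of N4bp2l1 was lost without saline replicate 1 or 3, without the insulin glargine group and with the 9 insulin arrays fitted as 1 group. The probe set of the pseudogene Adh6-ps1 fell by 0.92 ± 0.15 and may read related alcohol dehydrogenases.

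Most of the insulin targets checked were not called. Of 26 gluconeogenesis and FoxO target genes, 2 were called and both were lower members, beside 1.17% called lower and 0.945% lower members over all probe sets. Neither was called without saline replicate 2 or 3, and Foxo3 was also lost without saline replicate 1. Foxo3, a FoxO factor itself, was at 10.053, 10.086 and 10.003 after saline and at 9.52 to 9.91 after insulin (-0.45, -0.41 and -0.25), and Sesn3, a sestrin that restrains mTOR, was at 9.80 to 9.86 and at 9.19 to 9.59 (-0.34, -0.50 and -0.47). Pck1 and G6pc, the entry and exit enzymes of glucose output, had changes of -0.22 ± 0.08 and 0.03 ± 0.10, and Igfbp1, Irs2 and Insr had 0.33 ± 0.21, 0.24 ± 0.17 and -0.19 ± 0.06. None of these 5 was called. Slc2a2 (GLUT2), the main glucose carrier of the hepatocyte, was at 12.49, 12.55 and 12.65 after saline and at 11.76 to 12.37 after insulin, a change of -0.48 ± 0.10, but its call was lost in 13 of 26 alternatives, among them those without saline replicate 1, 2 or 3 and without insulin glargine replicate 3. The related carriers Slc2a5 and Slc2a9 fell by 0.67 ± 0.10 and 0.62 ± 0.06, and Pdk2, a kinase that shuts pyruvate dehydrogenase, by 0.69 ± 0.08 with changes of -0.63, -0.79 and -0.65. Gabarapl1, an autophagy gene, fell by 0.47 ± 0.10 and was called in 13 of 26 alternatives, none of them without a saline array.

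No lipid synthesis gene was a member by the probe set read for the list. Of 26 genes, Acly and a probe set of Acaca were called higher, beside 1.13% of all probe sets, and both overlapped with saline. Acly, which makes cytosolic acetyl-CoA, changed by 1.55, 0.03 and 0.49, and that probe set of Acaca, acetyl-CoA carboxylase, by 1.39, 0.30 and 0.36. A second probe set of Acaca changed by 1.56, 0.33 and 0.57 and was just inside the rule, with the saline arrays at 9.33, 8.84 and 9.16 and the lowest Insulin-Apo array at 9.33. Fasn, fatty acid synthase, was not called at 0.83 ± 0.20, with -0.04 after Insulin-Apo. Fdft1, squalene synthase, was the 1 called gene of 19 in cholesterol synthesis and uptake, at -0.29, -0.33 and -0.90. The call of Fdft1 was lost without saline replicate 1, without the insulin glargine group and with the 9 insulin arrays fitted as 1 group. Of 17 bile acid genes, 5 had all insulin arrays below saline, beside 2.58% of all probe sets, and 1 was called, Hsd3b7, which acts early in bile acid synthesis (-0.22, -0.14 and -0.62). The call of Hsd3b7 was lost in 13 of 26 alternatives, among them those without each saline array and without the insulin glargine group. Cyp7a1, the rate-limiting enzyme of that pathway, was at 13.63, 13.75 and 13.52 after saline, 12.19, 11.21 and 11.09 after Albulin, 11.18, 10.12 and 12.88 after Insulin-Apo, and 13.18, 13.13 and 13.37 after insulin glargine. All 9 insulin arrays were below saline, but the spread within Insulin-Apo was wide (SD 1.39, n = 3), and the change of -1.59 ± 0.41 was not called (limma, adjusted p = 0.048 and B of -1.34).

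**Figure D4:**
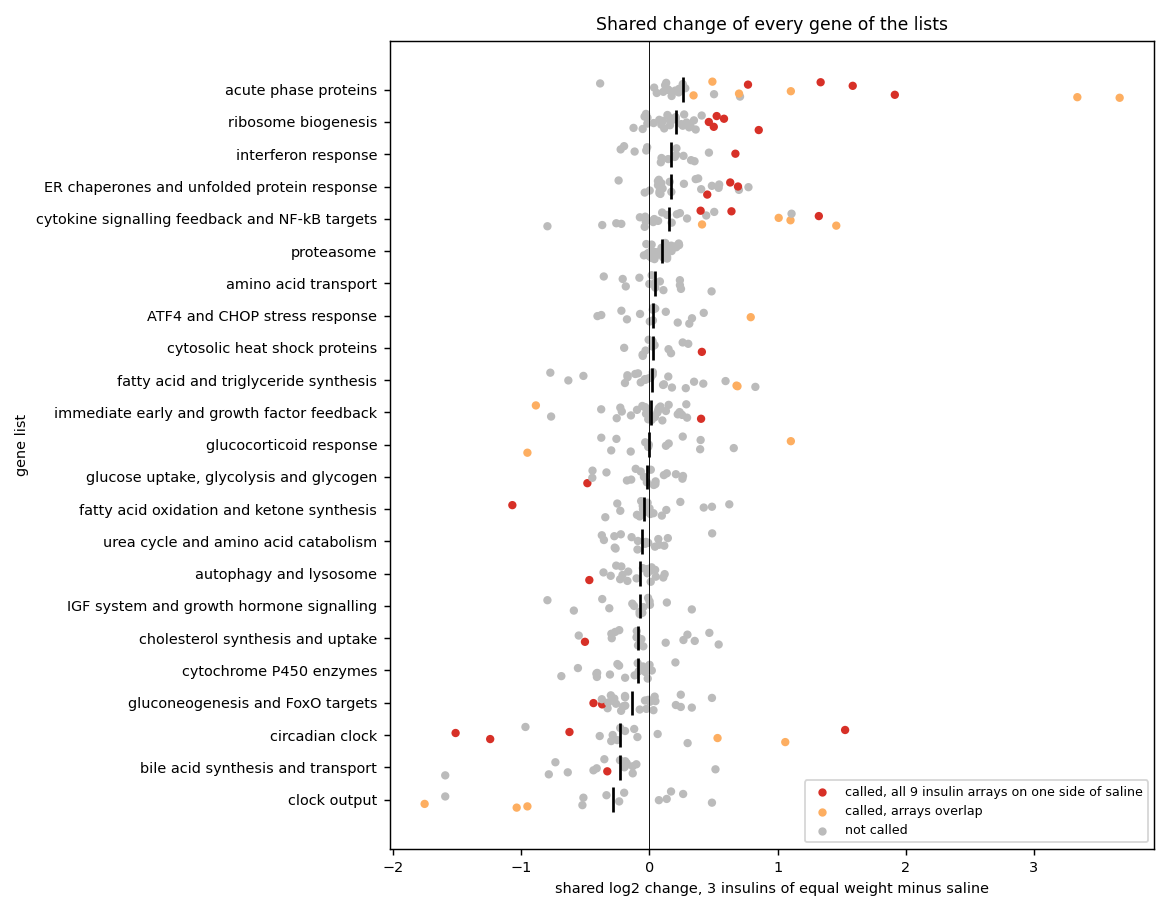
Shared log2 change (horizontal axis) of every measured gene of the 23 gene lists (rows, ordered by median), with members in red, called genes whose arrays overlap with saline in orange, genes not called in grey, and the list median as a bar. Ribosome biogenesis had red points on the higher side alone and the circadian clock on both, while most genes of every list were grey.

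The remaining lists held few members, and over all probe sets 1.13% were called higher and 1.17% lower. Fosl2, an AP-1 factor that changed by 0.40, was the 1 higher member of 30 immediate early and growth factor genes, but its call was lost in 11 of 26 alternatives, among them those without each saline array. Erbb3 was called lower in that list with -0.0050, -0.31 and -2.35. Hsp90aa1, at 0.41, was the 1 called gene of 13 cytosolic heat shock proteins, and it was not called without saline replicate 1 or 2. Acot3 was the 1 called gene of 21 in fatty acid oxidation. No gene was called among 15 of the IGF system and growth hormone signalling, 14 amino acid transporters or 31 of the proteasome. Of 16 ATF4 and CHOP stress genes, Chac1 alone was called, at 1.69, 0.93 and -0.24, and its arrays overlapped.

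Whether the members changed by unlike amounts was tested with the limma F test among the 3 insulins, in which saline takes no part. It passed at an adjusted p under 0.05 for 165 of the 442 members (37.3%) and for 2759 of all probe sets (10.6%). Both the F test and the calls use the same estimate of spread, so the shares were not compared. Among the 93 lower members that passed, insulin glargine gave the largest change in 92, and among the 72 higher ones it gave the largest in 48 and the smallest in 22. Over all probe sets, 7.83% and 9.07% differed between insulin glargine and Albulin or Insulin-Apo, and 1.12% between the fusion proteins. Differences of insulin glargine from the others were thus also found outside the members. The spread among the single changes, as the range of the 3, had a median of 0.31 over all members and reached 2.39 in Cxcl1.

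**Figure D5:**
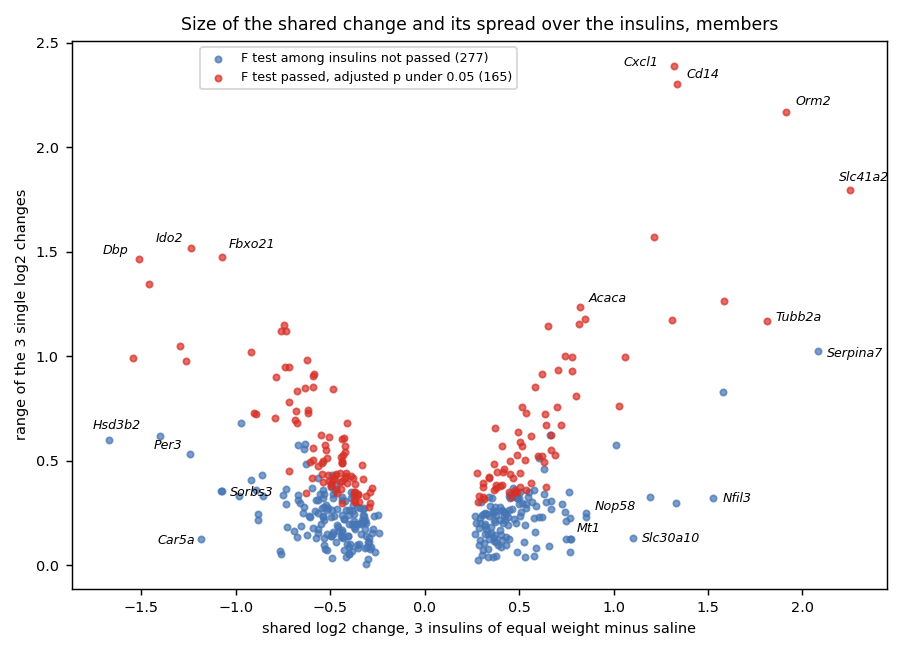
Range of the 3 single-insulin log2 changes (vertical axis) against the shared log2 change (horizontal axis) of the 442 members, in red where the F test among insulins passed and in blue where it did not. Among the labelled genes, Slc30a10 and Car5a lay lowest with ranges near 0.13, and Cxcl1, Cd14 and Orm2 highest with ranges over 2. Members without a label, such as Gnl3 at 0.047, had smaller ranges.

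The 3 paired differences were read at the same dose and hour, with p values adjusted over all probe sets and the 3 pairs. Albulin and Insulin-Apo, which share a single-chain insulin and differ in the protein fused to it, differed in 13 members. These were 2.94% of the members, beside 1.12% of all probe sets, and the median absolute difference over the members was 0.10. Albulin and insulin glargine differed in 135 members (30.5% of the members, beside 7.83% of all probe sets). Insulin-Apo and insulin glargine differed in 139 (31.4%, beside 9.07%), and the median absolute difference over the members was 0.24 in either pair. Among the 13, Cxcl1, Acaca and B4galt1, a galactosyltransferase, rose more after Albulin, with differences of 1.26, 1.23 and 0.67. Manf, Slc35b1 and Srprb, all of the ER, rose more after Insulin-Apo, and Slc2a9 fell more (-0.52 against -0.18). For Slc41a2 the difference between the fusion proteins was -0.05 (95% interval -0.46 to 0.36), whereas Albulin and Insulin-Apo exceeded insulin glargine by 1.75 (1.34 to 2.15) and 1.80 (1.39 to 2.20). For Nfil3, also picked for its small range, no pair passed, but the interval of Albulin minus Insulin-Apo, -0.03 to 0.67, leaves room for a difference as large as 0.67. Insulin glargine also had the widest spread between arrays (median SD 0.127, against 0.084 to 0.090 in the other groups), and whether its arrays were processed with the rest is not given, so insulin and processing set cannot be told apart for these pairs.

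Promoter letters were read in the 250 bases before the start site, on both strands, for the genes with an entry in the RefSeq table (132 of 174 higher and 183 of 232 lower genes, with 151 and 247 entries). The E-box CACGTG was found in 9.27% of the entries of higher genes, 8.10% of those of lower genes and 6.02% of all 32851. The D-box was in 0.662%, 1.22% and 0.819%, and the FoxO motif GTAAACA in no entry of a higher gene, 4.05% of those of lower genes and 3.17% of all. The cAMP response element TGACGTCA was in 3.31%, 0.405% and 1.55%, and the NF-kB core with 2 open letters in 1.99%, 0.81% and 1.21%, with Cxcl1 among the matches. The glucocorticoid receptor hexamer AGAACA was in 7.29%, 7.69% and 16.1%. Some genes have several entries that overlap, and the shares are descriptions of these letters only.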

How the data were processed

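The authors deposited log2 expression values made with RMA (background correction, quantile normalization and summary per probe set) from 12 Affymetrix Mouse Gene 1.0 ST arrays. Whether all 12 arrays were normalized together is not given in the sources used here. RMA pulls array distributions together, so a shift of all genes would not be seen.

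Of 28213 probe sets, 2186 that were not over 5 on at least 2 arrays of any group were left out. A limma fit (version 3.58.1, R 4.3.3) with a mean per group gave the contrast of the 3 insulins, weighted equally, against saline, with moderated standard errors, Benjamini-Hochberg adjusted p values and the log odds B (prior 0.01, called over 0). An F test and 3 paired contrasts compared the insulins. The same limma code was tested on simulated data. Symbols came from the platform annotation, and 21640 probe sets had 1 symbol, 1321 several and 5252 none. Promoters came from RefSeq (GRCm38.p6). A gene of a list was read from its probe set with the highest mean.

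The members, gene lists and tests were chosen with earlier results of these data known. Genes were named as the largest 15 members in each direction, up to 5 members per list, the most even and most unlike members with a change of at least 1, fixed insulin targets and the 3 genes on each side of the rule's edge. Genes outside this were chosen after their values were seen. Array number limits the precision.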

Additional observations from a re-analysis of the deposited data

Results flagged for a closer look

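The limma F test found unlike changes after the 3 insulins in 165 of the 442 members. The named genes that it marked are given here by the range of their 3 log2 changes. Among genes higher after insulin, the range was 2.39 in Cxcl1, 2.30 in Cd14, 2.17 in Orm2, 1.80 in Slc41a2, 1.57 in Slc16a6, 1.26 in Steap4, 1.17 in Tubb2a, 0.996 in Cpne8, 0.76 in Tgm2 and Alg2, 0.67 in Osmr and 0.53 in Manf. In lipid synthesis it was 1.52 in Acly, 1.46 in Fasn, and 1.23 and 1.09 in the 2 probe sets of Acaca. Among lower genes it was 1.52 in Ido2, 1.48 in Fbxo21, 1.46 in Dbp, 1.35 in Fam13a, 1.05 in Apol7a, 1.02 in Adh6-ps1, 0.99 in Keg1, 0.61 in Fdft1 and 0.48 in Hsd3b7. Cyp7a1, which was not called, had a range of 1.84. At the edge of the rule the range was 1.04 in Etv6, 0.66 in Sft2d1 and 0.42 in Smarcd1. Groups of 3 arrays are too small for a test of single arrays that stand apart.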

How the results depend on the processing

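Of the 53 named members, 17 were called in all 26 alternatives tried for them and 36 lost the call in at least 1, and of all 442 members 48 were called in every alternative. No named gene that was called changed sign, but the members turned from mostly lower (196 higher, 246 lower) to mostly higher without insulin glargine (406 and 302), and to 329 and 325 without insulin glargine replicate 3. The 598 called probe sets became 1008 with array quality weights, 1107 at an adjusted p under 0.05, 242 when a size of 0.58 or more (log2) was also asked, and 224 with the 9 insulin arrays as 1 group. The 442 members became 151 with that size limit, 222 with 1 insulin group and 708 without insulin glargine. With 1 insulin group, the spread between insulins counts as error, and the named members that lost their call included Orm2, Steap4, Cd14, Cxcl1, Dbp, Fam13a, Apol7a, Fbxo21 and Ido2. The 1162 probe sets that did not overlap became 1844, 2234 and 2695 without Albulin, Insulin-Apo or insulin glargine. The F test gave 1290 at an adjusted p under 0.01 and 36 without insulin glargine, where it compares the fusion proteins alone. Without each array in turn, the called probe sets ran from 310 (without saline replicate 2) to 902 (without insulin glargine replicate 3), those not overlapping from 1263 to 2157, the members from 250 to 654 and the F test from 2083 to 3062. With the replicate number as a block, 534 were called, with 378 members and 2329 by the F test, but same-numbered arrays did not deviate together (residual correlations from -0.27 to 0.15, 2 of 18 over 0.1), so the numbers were not read as pairs. The share of calls that were higher was 49.0% and ran from 44.6% with 1 insulin group to 57.5% without insulin glargine. Among counts for the gene lists, 177 of 1716 moved by over 1.5 times.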

Other observations

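Some gene families outside the lists held several members. They were picked after their values had been seen and have no test. Of 29 measured genes of intraflagellar transport and the BBSome, which build and load the primary cilium, 5 were lower members (Ift52, Ttc8, Bbs10, Ift140 and Wdr19), beside 0.945% of all probe sets, and the median change of the family was -0.15. Wdr19 was the largest of these at -0.54, with -0.42, -0.36 and -0.85 after Albulin, Insulin-Apo and insulin glargine. Of 24 phosphodiesterases, 3 were lower members, beside the same 0.945%, with changes of -0.45 in Pde9a, -0.33 in Pde4c and -0.53 in Pde6c. Of 4 nuclear factor I genes, Nfib and Nfix were lower members at -0.44 and -0.37, again beside 0.945% of all probe sets.

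Of 24 zinc and manganese transporters, 3 were higher members: Slc30a10, Slc39a14 and Slc39a7, beside 0.753% of all probe sets. Slc39a7 moves zinc out of the ER and changed by 0.53, 0.78 and 0.28. Of 18 cytosolic aminoacyl-tRNA synthetases, Tars and Wars were higher members at 0.61 and 0.37 (again beside 0.753% of all probe sets), and the family median was 0.23. Of 35 DEAD-box helicases, Ddx3x, Ddx19b, Ddx20 and Ddx28 were higher members, beside the same 0.753%.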
